A study of Mus musculus with 338 samples.

Results

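Glycolysis and the tricarboxylic acid (TCA) cycle are followed here through the messenger RNA of their enzymes in mouse pancreatic islets. The members are a list of 39 gene symbols from both pathways, from hexokinase to malate dehydrogenase, with the shuttles that carry reducing equivalents into mitochondria. The list is not complete and holds, for example, no aconitase or succinate dehydrogenase gene. The rule took the rows of the count table that bear these symbols, and 38 of the 39 were found among the 21382 genes of the table. The missing symbol was Pkm2. A row named Pkm, for pyruvate kinase, the last step of glycolysis, was present with a median of 365 CPM (reads of a gene scaled to a common library total), but it is not counted as a member.

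Islets came from 6 inbred strains, 129S2/SvPas, A/J, AKR/J, BALB/cJ, C57Bl/6J and DBA/2J. Mice ate either regular chow (RC) or food high in fat and sugar (HFHS), and islets were taken at days 2, 10, 30 and 90, which gave 48 groups and 1 library per mouse, 172 on HFHS and 166 on RC. No mouse carried an engineered allele or received another agent according to the labels, and their age and sex were not given there. At least 150 islets were lysed per mouse, so every value is a mean over beta, alpha and other islet cells, and fewer cells of a type cannot be told apart from less RNA per cell.

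In beta cells, glycolysis feeds nearly all of its pyruvate into mitochondria, because lactate dehydrogenase is kept low. Pyruvate enters the TCA cycle through the pyruvate dehydrogenase complex, and the resulting rise in ATP closes potassium channels and starts insulin release. Cytosolic NADH is re-oxidised by the glycerol phosphate shuttle and the malate-aspartate shuttle, which lets glycolysis run on at high glucose.

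Libraries held 9526926 to 50751894 reads assigned to genes (median 25989180). In 39 of them the counts depended steeply on the GC content of the gene, and in 37 of these GC-rich genes were low. Insulin genes took a median of 2.80% of reads in those 39 libraries against 22.5% in the other 299, and the 9 libraries whose strain-specific genes were closest to another strain than the labelled one all lay among the 39. The results below rest on the 299 libraries, with a GC correction for each library. All 6 libraries of BALB/cJ on HFHS at day 2 and 7 of the 8 of DBA/2J on RC at day 90 were lost by this bound, so the diet comparison covers 22 of the 24 combinations of strain and day. Values from all libraries are given where they turn a direction. Genes of other cells in the islet preparation were read through lists of marker genes.

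The promoters of 3 members that varied together over mice, and that were among the 4 largest rises past the threshold by diet in AKR/J islets, are shown first. Pgk1 encodes phosphoglycerate kinase, a step of lower glycolysis that yields ATP. Mdh1 encodes the cytosolic malate dehydrogenase of the malate-aspartate shuttle, and Suclg1 the alpha subunit of succinyl-CoA ligase in the TCA cycle. Each sequence is the 250 bases before the RefSeq start of transcription in build GRCm38.p6, written 5′ to 3′ along the gene, at chrX:106186850-106187099 on the plus strand for Pgk1, chr11:21571935-21572184 on the minus strand for Mdh1 and chr6:73248255-73248504 on the plus strand for Suclg1. Capitals mark ACGTG or its reverse complement CACGT, 1 form of the core letters of the site that hypoxia-inducible factors bind. The other form, GCGTG, was neither marked nor counted, and the Suclg1 window holds its reverse complement CACGC.
Pgk1: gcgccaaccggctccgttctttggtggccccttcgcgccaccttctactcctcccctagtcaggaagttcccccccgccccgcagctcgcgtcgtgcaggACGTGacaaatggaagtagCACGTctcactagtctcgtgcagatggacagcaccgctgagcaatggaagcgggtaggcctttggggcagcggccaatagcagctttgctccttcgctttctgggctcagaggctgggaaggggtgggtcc
Mdh1: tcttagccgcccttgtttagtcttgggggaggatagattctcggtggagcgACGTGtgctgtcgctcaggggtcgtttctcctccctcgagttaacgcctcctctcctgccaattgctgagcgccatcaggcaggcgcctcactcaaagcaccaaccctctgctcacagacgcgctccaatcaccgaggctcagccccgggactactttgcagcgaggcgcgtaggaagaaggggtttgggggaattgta
Suclg1: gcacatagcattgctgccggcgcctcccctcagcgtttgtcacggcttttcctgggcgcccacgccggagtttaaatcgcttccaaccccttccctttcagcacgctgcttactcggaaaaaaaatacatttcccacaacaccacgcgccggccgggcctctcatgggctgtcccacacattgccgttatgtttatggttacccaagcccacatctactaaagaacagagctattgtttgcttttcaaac
The Pgk1 window held 2 matches to ACGTG, the Mdh1 window 1 and the Suclg1 window none. Promoters were found in RefSeq for 37 of the 38 members. ACGTG, read on both strands in windows from 250 bases before to 50 bases after the start, occurred for 17 of these 37 members (45.9%) and for 21.8% of 27025 genes with a promoter in the same table. A gene can have several windows, and members had more per gene. By window, ACGTG occurred in 26 of 56 for members (46.4%) and in 19.6% of all 32851. The other genes were not matched to the members in base composition or expression. CACGTG, the letters of the E-box that carbohydrate-responsive and related factors bind and a motif that contains ACGTG, occurred for 5 of 37 members (13.5%) and for 8.09% of genes. These shares describe letters in the windows and not binding.

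Most enzymes of both pathways were abundant in islets, with Aldoa and Pfkfb2 far above the other listed isoform. Levels compared between genes are RPKM, that is CPM per kilobase of transcript, as medians over 299 mice. Of the 38 members, 27 had a median RPKM of 10 or more, 7 lay from 1 to 10 and 4 below 1. Aldoa, the main aldolase, was highest at 179 RPKM, followed by the cytosolic and mitochondrial malate dehydrogenases Mdh1 and Mdh2 (109.3 RPKM for Mdh2), the oxoglutarate dehydrogenase Ogdh (76.4 RPKM) and the isocitrate dehydrogenase subunit Idh3g (71.7 RPKM). At the other end stood Hk2 (0.147 RPKM) and Hk3 (0.213 RPKM), hexokinases of high glucose affinity.

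**Figure D1:**
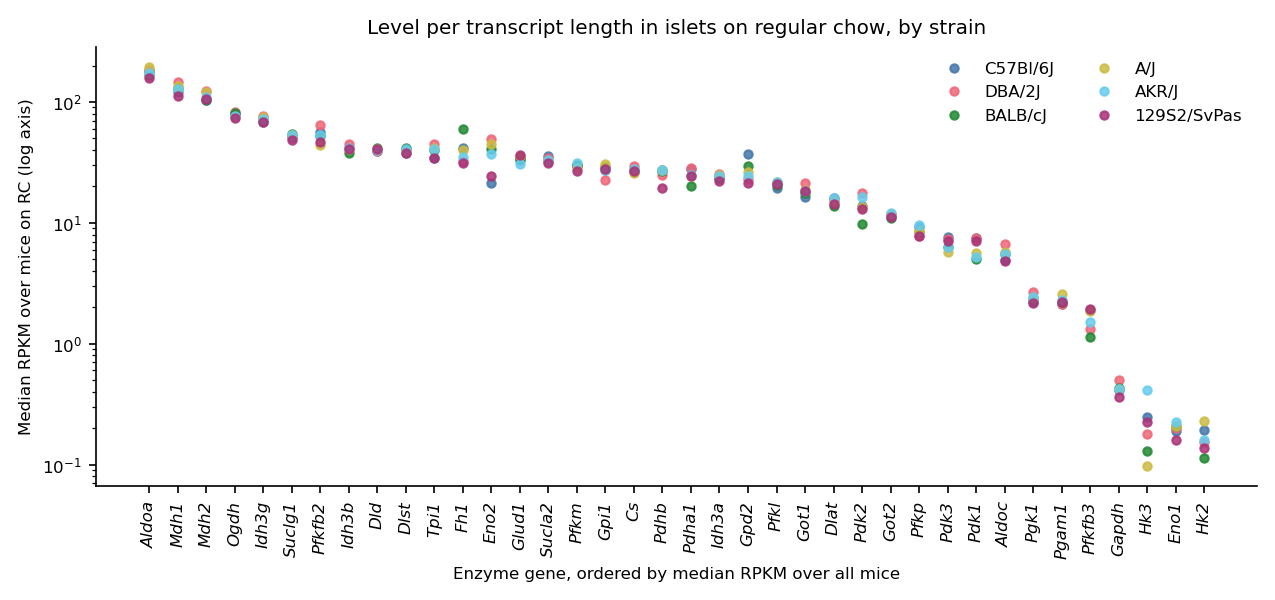
Median RPKM (log axis) of each of the 38 enzyme genes on regular chow, 1 point per strain, ordered by the median over all mice. The 6 strains lie close together for most genes, Aldoa is highest at 179 RPKM over all mice, and Eno2, Fh1 and Hk3 show wide gaps between strains.

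The low values of Gapdh (0.430 RPKM) and Eno1 (0.194 RPKM), glycolytic enzymes that nearly all cells express strongly, cannot be read as levels. Their transcripts match other genes at 95% identity or more over stretches of at least 100 bases, Gapdh 81 other genes over 88.0% of its length and Eno1 3 other genes over 85.6%. Pgk1 (4.28 CPM) matched 4 pseudogenes over 68.8% of its transcript and Pgam1 (3.96 CPM) 1 pseudogene over 43.1%. Pdhb, Got2 and Gpi1 matched other genes over 71.2%, 72.5% and 55.3% of their transcripts. For Gpi1 these were 5 genes, 1 of them a pseudogene. Levels of these 7 genes are therefore uncertain, and a difference between groups is that of the reads that were counted. Smaller parts of Glud1 (27.8%), Pfkfb2 (25.6%), Tpi1 (19.3%) and Gpd2 (3.7%) also matched other genes. Pfkp overlaps Pitrm1 and Pdha1 overlaps Map3k15, and the kit keeps no strand, so reads of such pairs cannot be told apart where they overlap.

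Isoform shares were taken as each gene's part of its family's summed RPKM, as the mean over 299 mice. Among phosphofructokinases, which commit glucose to glycolysis, Pfkm took 50.0% ± 2.82 (SD, n = 299), Pfkl 35.1% ± 2.79 and Pfkp 14.9% ± 1.96. Pfkfb2, of the pair of listed enzymes that set the level of fructose 2,6-bisphosphate, took 96.6% ± 1.56 against Pfkfb3. Aldoa took 97.2% ± 0.623 against Aldoc. Of the listed kinases that switch off pyruvate dehydrogenase, Pdk2 took 52.4% ± 5.23, Pdk3 24.7% ± 3.42 and Pdk1 22.8% ± 3.38. A further such kinase, Pdk4, is not a member and was left out of these shares. Pdk2's share on RC ran from 46.3% ± 3.26 in BALB/cJ (n = 26) to 58.3% ± 3.21 in AKR/J (n = 27). The subunits of isocitrate dehydrogenase stood at 52.3% ± 1.62 for Idh3g, 30.2% ± 1.45 for Idh3b and 17.5% ± 1.38 for Idh3a.

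The members that changed with diet did so by small amounts. Each diet effect is HFHS minus RC in log2 units with its standard error (SE), averaged over strains with equal weight, from edgeR's quasi-likelihood test, and a gene is said to rise or fall where the Benjamini-Hochberg adjusted p over 17030 genes is under 0.05. At day 2, over 5 strains, 18 of 38 members rose against 14.5% of all genes, and 1 fell against 7.4%. The median of the members was 0.08 and that of all genes 0.028. Of the TCA cycle genes 8 of 10 rose, of the pyruvate dehydrogenase complex and its kinases 4 of 7, of upper glycolysis 4 of 11, of the malate-aspartate shuttle and glutamate entry 2 of 4, and of lower glycolysis none of 5 (Pgam1 had the smallest adjusted p there, 0.181).

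The largest of the day 2 rises were those of Suclg1 (0.19 ± 0.043, adjusted p = 0.000339) and of Mdh2, the mitochondrial malate dehydrogenase (0.19 ± 0.044, adjusted p = 0.000514). Gpi1, which turns glucose 6-phosphate into fructose 6-phosphate, rose by 0.15 ± 0.027 (adjusted p = 7.36e-06), and the muscle-type phosphofructokinase Pfkm by 0.14 ± 0.032 (adjusted p = 0.000227). Dlat, the acetyltransferase of the pyruvate dehydrogenase complex, rose by 0.13 ± 0.026 (adjusted p = 2.13e-05). As folds, these 5 lay from 1.10 to 1.14. In all, 9 of the 38 members were higher on HFHS in each of the 5 strains, among them Gpi1, Aldoa, Tpi1, Suclg1 and Mdh2. The same was not counted over all genes, so this number has no background beside it.

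Fewer members passed at day 2 once AKR/J was left out, a comparison added after the data were seen. Over the other 4 strains 6 members rose (against 10.8% of all genes) and none fell, against 6.17% of genes (Hk3 had an adjusted p of 0.0714). Those that still rose were Gpi1 (0.15 ± 0.030, adjusted p = 8.92e-05), Pfkm (0.15 ± 0.036, adjusted p = 0.000743), Dlat, Mdh2, Glud1 and Pdk2. The direction also depended on the libraries with steep GC dependence. All libraries also bring in BALB/cJ at day 2, so the mean is then over 6 strains. In all libraries without a GC correction Gpi1 stood at -0.10, Pfkm at -0.07, Aldoa at -0.23, Tpi1 at -0.06, Pdk2 at -0.14, Idh3g at -0.05, Mdh2 at -0.03 and Got2 at -0.03 at day 2, none past the threshold.

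The fall at day 2 was that of Hk3, at -0.62 ± 0.23 (adjusted p = 0.0356). Hk3 is a hexokinase of blood cells, and its level was low (median 0.687 CPM). All 8 measured macrophage markers fell at day 2 as well, with a median of -0.45, and their summed level had a median of 207.0 CPM on RC (113.7 to 477.3, n = 31) and of 165.4 CPM on HFHS (104.5 to 264.0, n = 29). Stellate cell and fibroblast markers fell in 6 of 8 cases. Of the 10 beta cell markers 3 fell and none rose, 3 of 7 duct cell, 3 of 8 endothelial and 3 of 9 lymphocyte markers fell, and 2 of 4 adipocyte markers rose. The part of these cells in the enzyme differences was not tested. Leaving out 1 mouse at a time from the groups of 5 or fewer ended the calls of Hk3 (adjusted p up to 0.0568), Idh3b (up to 0.0774) and Pdk2 (up to 0.109).

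**Figure D2:**
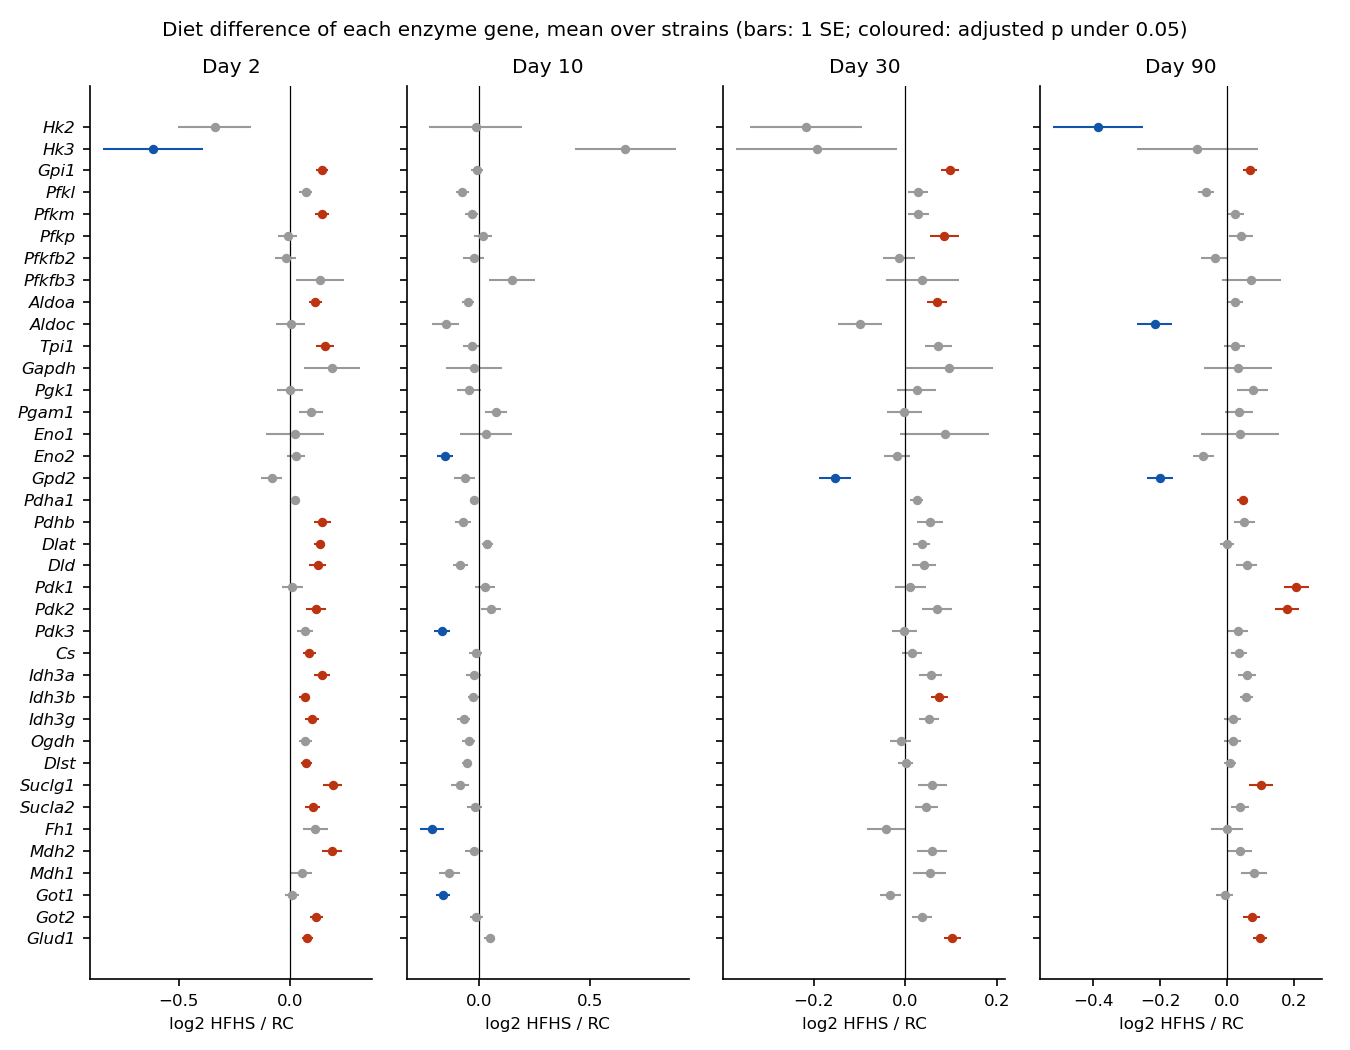
Diet difference of each enzyme gene (log2 HFHS / RC, mean over strains) at days 2, 10, 30 and 90, 1 panel per day with its own scale; points are estimates, bars are 1 SE, and colour marks an adjusted p under 0.05. Day 2 holds 18 genes higher and 1 lower, day 10 holds 4 lower, and Gpd2 lies left of zero in every panel.

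At day 10 no member rose, against 2.25% of all genes, and 4 fell, against 4.15%. By edgeR at an unadjusted p under 0.05, 2 were higher and 11 lower, and DESeq2 and limma voom each called 1 member higher. Got1, the cytosolic aspartate aminotransferase of the malate-aspartate shuttle, fell by 0.16 ± 0.030 on the log2 scale (adjusted p = 4.94e-05). Pdk3, a kinase that inhibits pyruvate dehydrogenase, fell by 0.17 ± 0.036 (adjusted p = 0.000545), and the neuronal-type enolase Eno2 by 0.15 ± 0.038 (adjusted p = 0.00382). Fumarate hydratase, Fh1, fell by 0.21 ± 0.054 (adjusted p = 0.00593). All 4 stayed past the threshold without AKR/J. In all libraries without a GC correction, Got1 alone of these passed.

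At day 30, 5 members rose, against 13.8% of genes, and 1 fell, against 7.63%. Glud1, the mitochondrial glutamate dehydrogenase that feeds the cycle with oxoglutarate, rose by 0.10 ± 0.018 (adjusted p = 2.15e-06) and Gpi1 by 0.10 ± 0.020 (adjusted p = 2.98e-05). Idh3b, Aldoa and Pfkp rose by 0.07 to 0.08. Gpd2, the mitochondrial glycerol 3-phosphate dehydrogenase of the glycerol phosphate shuttle, fell by 0.15 ± 0.035 (adjusted p = 0.000361). The share of risers was close to the background. At day 30, 5 of 10 beta cell markers rose (median 0.12) and 7 of 8 stellate cell and fibroblast markers fell (median -0.46), and their part was not tested.

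At day 90, 7 members rose, against 6.34% of genes, and 3 fell, against 4.28%. Pdk1 (0.21 ± 0.038, adjusted p = 1.62e-05) and Pdk2 (0.18 ± 0.037, adjusted p = 0.000132) led the rises, followed by Glud1 (0.10 ± 0.020, adjusted p = 0.000138), Suclg1, Got2, Gpi1 and Pdha1. Gpd2 fell by 0.20 ± 0.039 (adjusted p = 5.02e-05), Aldoc by 0.22 ± 0.053 (adjusted p = 0.00189) and Hk2 by 0.39 ± 0.13 (adjusted p = 0.0431). Over the 4 strains left without AKR/J, Glud1 alone rose (0.09 ± 0.023, adjusted p = 0.00793; 2.27% of all genes) and Gpd2 alone fell (-0.15 ± 0.044, adjusted p = 0.0209; 2.66% of all genes). At day 90, 3 of 10 beta cell markers fell and 1 rose, and the part of this was not tested. Without AKR/J Pdk1 had an adjusted p of 0.439, Aldoc of 0.796 and Pdk2 of 0.0655. Leaving out 1 mouse at a time ended the calls of Got2, Hk2, Pdha1 and Suclg1, with adjusted p up to 0.0563, 0.0941, 0.0715 and 0.0719.

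Over all strains and days, 14 members rose, against 16.6% of genes, and 5 fell, against 10.2%. Glud1 (0.08 ± 0.011, adjusted p = 1.07e-10), Gpi1 (0.07 ± 0.012, adjusted p = 6.64e-08) and Pdk2 (0.10 ± 0.020, adjusted p = 1.4e-05) had the smallest p among the risers, and Gpd2 (-0.12 ± 0.021, adjusted p = 5.69e-07) and Aldoc (-0.12 ± 0.028, adjusted p = 0.000599) among those that fell. Over the same contrast 7 of 8 stellate cell and fibroblast markers fell (median -0.37) and 3 of 4 adipocyte markers rose, and their part was not tested. This contrast holds the same mice as those of the single days and strains. Gpd2 was lower on HFHS in 18 of the 22 combinations of strain and day, Gpi1 higher in 18, and Glud1, Aldoa, Tpi1 and Idh3b higher in 17. Without AKR/J, 6 rose, against 13.3% of genes, and 5 fell, against 10.2%, so both shares were near those of all genes. Glud1, Gpi1 and Gpd2 were among them (adjusted p = 1.9e-10, 2.11e-06 and 2.13e-05).

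Gpd2 gave the most repeated fall, largest in BALB/cJ and AKR/J at day 90. In BALB/cJ on RC at day 90 the 8 mice ranged from 138.3 to 200.4 CPM (median 175.5), and on HFHS the 7 mice from 86.56 to 169.5 CPM (median 138.5). In AKR/J at day 90 the 8 RC mice ranged from 121.6 to 159.1 CPM (median 140.2) and the 8 HFHS mice from 65.4 to 129 CPM (median 93.2). The groups overlapped in both strains. The fitted difference was -0.34 ± 0.09 in BALB/cJ and -0.40 ± 0.09 in AKR/J at that day, values without a test of their own. In 129S2/SvPas the 4 differences lay from -0.05 to 0.09.

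The diet effect differed between strains for 25 of the 38 members by the F test of the interaction, against 46.8% of all genes. It was strongest for Fh1 (adjusted p = 1.33e-10), Aldoc (8.03e-09), Mdh1 (4.32e-07), Pdha1 (3.33e-06), Pfkl (5.58e-06) and Ogdh (6.18e-06). Each strain entered this test with the mean over its own days, which lack day 2 for BALB/cJ and day 90 for DBA/2J. By strain, with the same mean over its days, C57Bl/6J had 2 members higher (background 2.31% of genes) and none lower (1.7%). DBA/2J had 3 higher (8.57%) and 3 lower (3.76%), BALB/cJ 1 higher (7.85%) and 9 lower (12.7%), and A/J 3 higher (5.06%) and 2 lower (4.5%). AKR/J had 22 higher (22.8%) and 5 lower (14.6%), and 129S2/SvPas 4 higher (5.7%) and none lower (3.36%). Of the 2 counts of none, C57Bl/6J had 2 members lower at an unadjusted p under 0.05 in edgeR, 0 by DESeq2 and 2 by voom, and 129S2/SvPas had 0 by each of the 3.

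**Figure D3:**
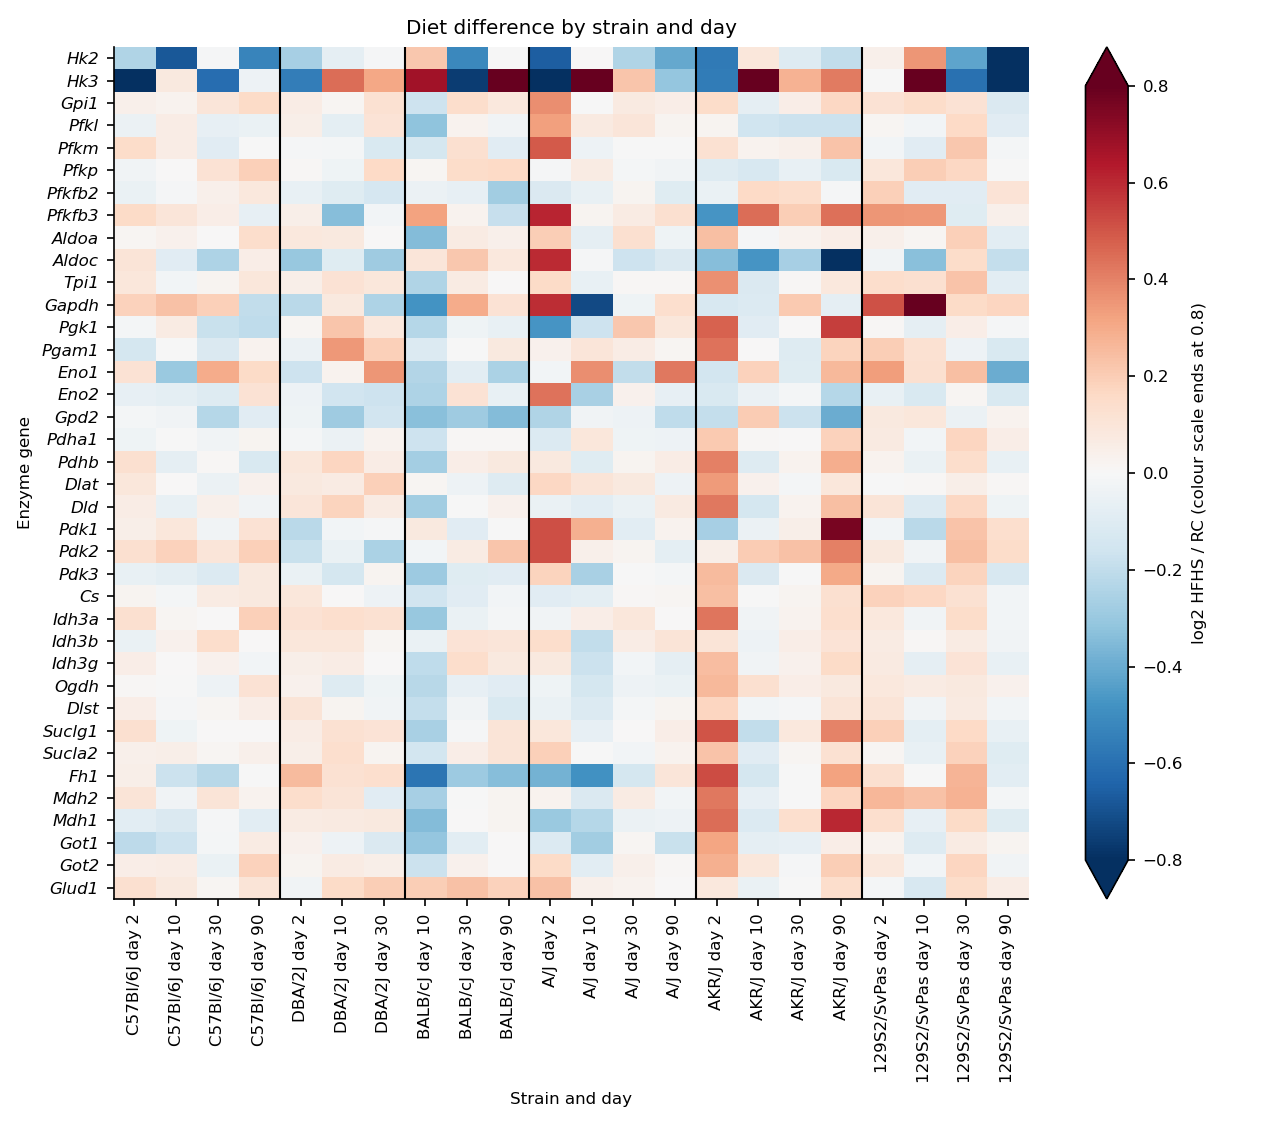
Fitted diet difference (log2 HFHS / RC, red higher and blue lower on HFHS, colour scale ending at 0.8) of each of the 38 enzyme genes in the 22 combinations of strain and day with both diets. AKR/J at days 2 and 90 is red over most TCA cycle and pyruvate dehydrogenase genes, and BALB/cJ at day 10 is blue over most.

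AKR/J islets showed a rise of most listed genes of the pyruvate dehydrogenase complex and the TCA cycle. All 7 genes of the pyruvate dehydrogenase complex and its kinases rose in that strain, as did 8 of 10 TCA cycle genes, with a median over the members of 0.10 and over all genes of 0.013. Lower glycolysis had 2 of 5 higher and 1 lower, upper glycolysis 3 of 11 higher and 3 lower. The low counts of most lower glycolysis genes limit this comparison as at day 2. The largest rises were those of Mdh1 (0.27 ± 0.047, adjusted p = 3.58e-07), Pgk1 (0.24 ± 0.055, adjusted p = 0.000171), Pdk2 (0.22 ± 0.043, adjusted p = 5.35e-06) and Suclg1 (0.20 ± 0.042, adjusted p = 2.81e-05). Pdha1, the catalytic subunit of the complex, rose by 0.10 ± 0.019 (adjusted p = 3.3e-06) and Got2, the mitochondrial aspartate aminotransferase, by 0.14 ± 0.029 (adjusted p = 2.1e-05). The kinases act against the complex, so both the enzyme and its inhibitors were among the risers. Aldoc, an aldolase known from brain, fell by 0.50 ± 0.063 (adjusted p = 3.68e-12).

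These AKR/J differences were larger at days 2 and 90 than at days 10 and 30, which was not tested. Across the 38 members the median fitted difference was 0.22 at day 2 and 0.15 at day 90, but -0.04 at day 10 and 0.013 at day 30. At day 2 the 5 RC mice had Mdh1 at 246, 250, 255, 274 and 274 CPM. The 6 HFHS mice ranged from 257 to 372 CPM (median 322), so 1 of them lay within the RC range. Suclg1 stood at 79.7, 80.1, 84.1, 85.1 and 86.6 CPM in those RC mice and at 83.5 to 111.6 CPM (median 105.3) on HFHS. Pgk1 stood at 3.82, 4.14, 4.43, 4.91 and 4.92 CPM on RC and at 3.37 to 7.17 CPM (median 5.49) on HFHS, and the groups overlapped.

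At day 90 Mdh1 ranged from 262 to 319 CPM (median 275) in the 8 RC mice and from 311 to 401 CPM (median 367) in the 8 HFHS mice. A single RC mouse reached into the HFHS range, and it also had the highest Suclg1 (89.01 CPM) and Pgk1 (5.40 CPM) of its group. The other 7 RC mice ended at 289 CPM for Mdh1, below every HFHS mouse. Aldoc was 11.5 to 14.5 CPM (median 12.3) on RC at day 90. On HFHS at that day 7 mice had 3.02 to 7.05 CPM and 1 mouse 13.1 CPM. At day 10 Aldoc did not overlap between diets, at 15.02 to 22.47 CPM in 6 RC mice (median 19.3) and 11.3 to 14.8 CPM in 6 HFHS mice (median 13.3). At day 90 Pdk1 ranged from 21.3 to 32.7 CPM on RC (median 27.2) and from 24.2 to 56.0 CPM on HFHS (median 35.1). The fitted day 90 differences, which also carry the scaling and the GC correction that CPM lack, were 0.60 ± 0.09 for Mdh1, 0.56 ± 0.10 for Pgk1, 0.40 ± 0.08 for Suclg1, 0.76 ± 0.08 for Pdk1 and -0.92 ± 0.12 for Aldoc.

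**Figure D4:**
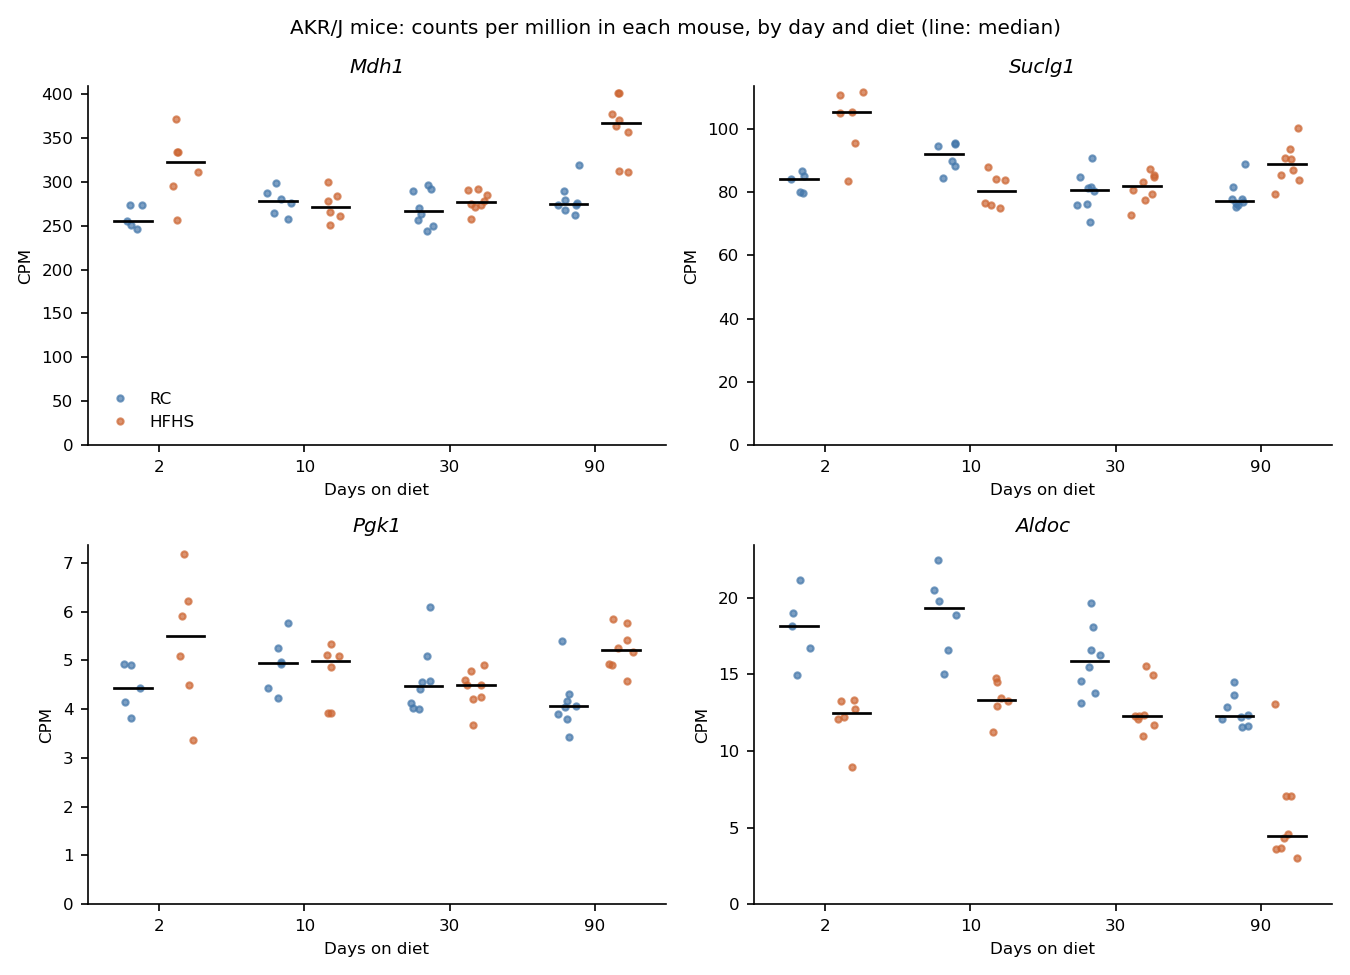
CPM of Mdh1, Suclg1, Pgk1 and Aldoc in each AKR/J mouse by day and diet, points are mice and lines are medians. Mdh1 on HFHS is above RC at day 90, with medians of 367 and 275 CPM, and Aldoc is lower on HFHS at each day.

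Beside these changes in AKR/J, 5 of 10 beta cell markers rose and 1 fell, 4 of 5 alpha cell markers fell, and all 8 stellate cell and fibroblast markers fell. Duct cell markers fell in 4 of 7 cases (median -0.59) and rose in 1, endothelial markers fell in 3 of 8 and delta and PP cell markers in 2 of 4. Insulin itself was higher (Ins1 0.24, Ins2 0.23) and glucagon lower (Gcg -0.40). The part of the mix of cells in the enzyme differences was not tested. All AKR/J libraries lay within the GC bound, and in all libraries without a GC correction Mdh1 (0.26), Suclg1 (0.17), Pgk1 (0.21) and Aldoc (-0.54) had much the same differences, while the number of members past the threshold was 5 in place of 27. Leaving out 1 mouse at a time ended the calls of Dlst, Eno2, Pfkp and Pgam1, with adjusted p up to 0.0534, 0.0506, 0.0652 and 0.0793.

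In BALB/cJ more members fell than rose. The mean of BALB/cJ covers days 10, 30 and 90 but, unlike that of AKR/J, not day 2. The median over members was -0.20 at day 10, 0.00077 at day 30 and 0.0041 at day 90. Over these days together 9 members were lower, 5 of them among the 10 TCA cycle genes. Fh1 fell by 0.41 ± 0.064 (adjusted p = 2.01e-07) and Gpd2 by 0.32 ± 0.055 (adjusted p = 1.45e-06). Dlst, the succinyltransferase of the oxoglutarate dehydrogenase complex, fell by 0.11 ± 0.026 (adjusted p = 0.000492), followed by Pdk3, Got1, Ogdh, Pfkl, Idh3a and Cs. Glud1 rose by 0.20 ± 0.028 (adjusted p = 1.68e-09). At day 10, where the median over members was -0.20, Fh1 stood at 137.9, 144.4, 177.4 and 180.0 CPM in the 4 RC mice and at 86.94 to 132.3 CPM in the 6 HFHS mice (median 107.5), with no overlap. The fall of Pfkl rested on the correction, at -0.0014 without it in the same libraries, and those of Cs and Idh3a were lost on leaving out 1 mouse (adjusted p up to 0.126 and 0.0521). All 4 delta and PP cell markers rose in BALB/cJ on HFHS, as did 3 of 8 endothelial and 2 of 5 alpha cell markers, and their part was not tested.

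In the other strains few members changed with diet. Glud1 rose in C57Bl/6J (0.08 ± 0.025, adjusted p = 0.0363) and DBA/2J (0.11 ± 0.029, adjusted p = 0.00529), and Pdk2 rose in C57Bl/6J (0.15 ± 0.045, adjusted p = 0.0326) and fell in DBA/2J (-0.16 ± 0.052, adjusted p = 0.0228). In all libraries without a GC correction, which add day 90 for this strain, Pdk2 in DBA/2J stood at 0.20. In A/J Gpi1 (0.12 ± 0.033, adjusted p = 0.0049), Pfkl and Pdk1 rose and Fh1 and Got1 fell, with 2 or 3 mice per group at days 2 and 10. In all libraries without the correction these turned for Gpi1 (-0.08), Pfkl (-0.19) and Fh1 (0.14). In 129S2/SvPas Mdh2 rose by 0.19 ± 0.042 (adjusted p = 0.000402), with Cs, Pdha1 and Gapdh. In that strain 8 of 18 acinar cell markers (median -0.86) and 6 of 8 stellate cell and fibroblast markers (median -0.60) fell. In A/J 3 of 4 adipocyte markers rose and 3 of 8 stellate cell and fibroblast markers fell, and in DBA/2J 3 of 10 beta cell markers rose and 3 of 8 endothelial markers fell. The part of these cells in the enzyme differences was not tested. The calls of Glud1 and Pdk2 in C57Bl/6J, of Aldoc, Gpd2 and Pdk2 in DBA/2J, and of Fh1 and Pdk1 in A/J were lost on leaving out 1 mouse, with the highest adjusted p at 0.107 for Fh1.

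On RC the strains differed at 7 of the 38 enzyme genes, Eno2, Fh1, Gpd2, Hk2, Hk3, Pdhb and Pdk2. A strain difference is that strain minus the mean of the other 5 at days 2, 10 and 30, called at an adjusted p under 0.05 and a log2 difference of at least 0.5 in size. C57Bl/6J had 2 members higher (7.71% of genes) and 1 lower (5.56%), DBA/2J 2 higher (5.18%) and none lower (6.33%), and BALB/cJ 1 higher (4%) and 2 lower (8.46%). A/J had none higher (5.3%) and 1 lower (5.97%), AKR/J 1 higher (9.7%) and none lower (4.07%), and 129S2/SvPas 1 higher (6.93%) and 3 lower (4.98%). With the bound of 0.5 kept, the counts of none were also 0 at an unadjusted p under 0.05 in edgeR and by DESeq2. Under that bound voom called 1 member higher in A/J. Smaller differences are outside these counts. Among the TCA cycle genes they reached -0.47 in DBA/2J, -0.29 in AKR/J and 0.46 in A/J. Markers of other cells differed between the strains as well. In 129S2/SvPas 15 of 18 acinar cell markers (median 1.08) and 4 of 5 alpha cell markers (median 0.56) were higher. In AKR/J 8 of 8 stellate cell and fibroblast markers were higher (median 0.95) and 12 of 18 acinar cell markers lower (median -0.76), and in DBA/2J 13 of 18 acinar cell markers were lower (median -0.85). Of the acinar cell markers 8 of 18 were higher and 1 lower in C57Bl/6J, and of the stellate cell and fibroblast markers 7 of 8 were higher in A/J and 4 of 8 lower in BALB/cJ. The part of these cells in the strain differences was not tested.

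Eno2 had the largest strain difference among the members of 10 RPKM or more. On RC it ran from 47.7 to 70.5 CPM in C57Bl/6J (median 59.8, n = 25) and from 51.4 to 106 CPM in 129S2/SvPas (median 68.2, n = 29). In DBA/2J it ran from 116.2 to 162.7 CPM (median 136.9, n = 18), above every mouse of both those strains. AKR/J, BALB/cJ and A/J lay between, with medians of 103.4, 114.5 and 125.5 CPM and overlapping ranges. The fitted differences were -0.83 ± 0.037 in C57Bl/6J (adjusted p = 8.34e-60), -0.68 ± 0.039 in 129S2/SvPas (adjusted p = 1.11e-43) and 0.67 ± 0.035 in DBA/2J (adjusted p = 4.83e-49).

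Fh1 was highest in BALB/cJ, at 110.8 to 188.1 CPM (median 158.5, n = 26), and the other strains had medians from 82.9 CPM in 129S2/SvPas to 108.8 CPM in C57Bl/6J. BALB/cJ differed by 0.80 ± 0.051 (adjusted p = 7.88e-38) and 129S2/SvPas by -0.54 ± 0.056 (adjusted p = 8.28e-18). Gpd2 was highest in C57Bl/6J, at 150 to 261 CPM (median 216, n = 25), and lowest in 129S2/SvPas, at 73.13 to 158.9 CPM (median 121.9, n = 29). C57Bl/6J differed by 0.55 ± 0.041 (adjusted p = 8.01e-30). Thus Fh1 and Gpd2 fell on HFHS in BALB/cJ from the highest and second highest RC median of the 6 strains. Pdk2 was higher in DBA/2J (0.51 ± 0.041, adjusted p = 1.02e-26) and Pdhb, the beta subunit of pyruvate dehydrogenase, lower in 129S2/SvPas (-0.50 ± 0.038, adjusted p = 2.32e-29), and both lay so near the bound of 0.5 that leaving out 1 mouse put them on the other side.

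Hk3 passed in 5 strains, at a low level in each. Its median on RC was 0.311 CPM in A/J, 0.415 CPM in BALB/cJ, 0.574 CPM in DBA/2J, 0.727 CPM in 129S2/SvPas, 0.796 CPM in C57Bl/6J and 1.32 CPM in AKR/J, with ranges that overlapped between neighbours. The difference was -1.63 ± 0.30 in A/J (adjusted p = 7.02e-07) and 1.18 ± 0.19 in AKR/J (adjusted p = 6.98e-09). In 129S2/SvPas, where Hk3 was called higher, the RC mice ran from 0.160 to 10.2 CPM. Their mean of 1.55 CPM lay above their median of 0.727 CPM, which was below that of C57Bl/6J. The summed macrophage markers on RC had a median of 387 CPM in A/J, 213.9 CPM in C57Bl/6J, 195.7 CPM in AKR/J, 160.9 CPM in BALB/cJ, 138.3 CPM in 129S2/SvPas and 129.4 CPM in DBA/2J. Of the 8 macrophage markers 4 were called higher in A/J, 3 in C57Bl/6J (median 0.25) and 1 in AKR/J (median 0.28), and 2 were lower in 129S2/SvPas, 1 in BALB/cJ (median -0.37) and 1 in DBA/2J. Their part in the Hk3 differences was not tested. Hk2 was lower in BALB/cJ (-0.65 ± 0.17, adjusted p = 0.000497).

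**Figure D5:**
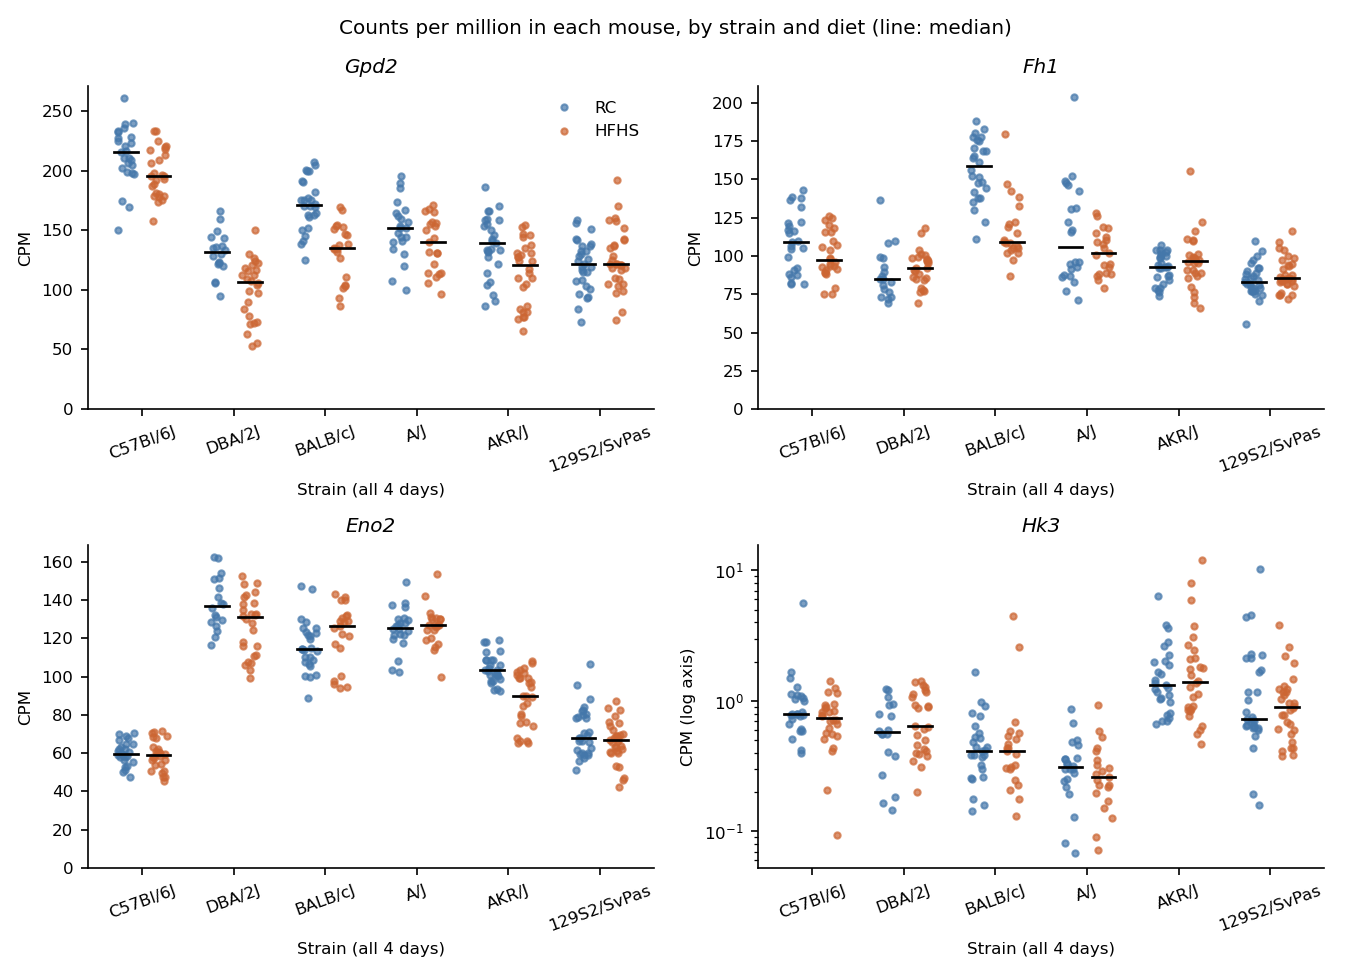
CPM of Gpd2, Fh1, Eno2 and Hk3 (Hk3 on a log axis) in each mouse by strain and diet with all days together, points are mice and lines are medians. Eno2 is low in C57Bl/6J and 129S2/SvPas on both diets, and Fh1 in BALB/cJ is higher on RC (median 158.5 CPM) than on HFHS.

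Over time on RC, with which the age of the mice also rises, more members fell than rose. From day 2 to day 90, over the 5 strains other than DBA/2J, 6 members rose, against 21% of genes, and 10 fell, against 14.6%. Eno2 (0.26 ± 0.037, adjusted p = 8.33e-10), Pdk3 (0.20 ± 0.035, adjusted p = 2.36e-07), Got1 (0.16 ± 0.029, adjusted p = 1.51e-06) and Aldoa (0.13 ± 0.028, adjusted p = 2.41e-05) rose, as did Gapdh and Dlat. Glud1 fell by 0.16 ± 0.023 (adjusted p = 8.36e-10) and was lower at day 90 in each of the 5 strains, from -0.12 to -0.20. Sucla2, an ATP-forming subunit of succinyl-CoA ligase, fell by 0.13 ± 0.031 (adjusted p = 0.000328), with Dld, Aldoc, Fh1, Pfkl, Pdha1, Tpi1, Pdhb and Pgk1. At the same time 4 of 5 alpha cell, 5 of 7 duct cell (median -0.59) and 6 of 8 stellate cell and fibroblast markers fell and 3 of 10 beta cell markers rose, and their part was not tested. The calls of Dlat, Pdha1, Pdhb and Pgk1 were lost on leaving out 1 mouse, with adjusted p up to 0.0740, 0.0603, 0.107 and 0.0974.

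Mice of 1 group that had more Pgk1 or Cs tended to have more of many, but not all, of the other enzymes. After group means were removed, Pgk1 and the TCA cycle entry enzyme Cs, citrate synthase, were each set against the other members over 299 mice, 73 pairs in all, with two-sided permutation tests adjusted over the 73, whose smallest possible unadjusted p was 1e-05. Of these, 45 were positive and 6 negative past an adjusted p of 0.05, with a median r of 0.20. Pfkfb2 was among the negative ones with both (r = -0.308 with Pgk1 and -0.162 with Cs). The share of all genes that would pass with Pgk1 or Cs was not counted, so these numbers have no background beside them. Pgk1 followed Mdh1 most closely (r = 0.606, rho = 0.585, adjusted permutation p = 2.5e-05 and 2e-05), with r of 0.598 without the 2 mice farthest out and from 0.389 in 129S2/SvPas to 0.828 in DBA/2J within strains. Its r with Suclg1 was 0.555 (rho = 0.528, within strains 0.389 to 0.738). Cs followed Mdh2 (r = 0.746, rho = 0.566, adjusted permutation p = 2.5e-05 and 2e-05), with r of 0.671 without the 2 mice farthest out and 0.321 to 0.874 within strains.

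Among all pairs of the 34 members whose corrected log2 CPM averaged over 2, Mdh1 with Suclg1 had the highest r (0.875), followed by Sucla2 with Suclg1 (0.822), and Pfkfb3 with Pfkm the lowest (-0.505). The median over the 561 pairs was 0.284, and over all pairs of 11171 genes 0.062. Pairs within the TCA cycle, pyruvate dehydrogenase and shuttles had a median of 0.337, and pairs within glycolysis 0.20. All pairs share the same libraries, scaling and mix of cells, and no test was made of these medians.

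Other genes of the pathways were counted in the same comparisons. Of 21 further glycolysis genes 5 rose and 1 fell at day 2, and of 28 further pyruvate dehydrogenase and TCA cycle genes 9 rose and 1 fell, beside 14.5% and 7.4% of all genes. Over all days and strains the counts were 5 and 3 of 21, and 8 and 3 of 28, beside 16.6% and 10.2% of all genes. Slc2a1, a glucose transporter, fell by 0.27 ± 0.022 over all days and strains (adjusted p = 1.79e-24), and Pdk4, a kinase of the complex that fatty acids are known to raise, rose by 0.55 ± 0.053 (adjusted p = 1.73e-18). Pcx, pyruvate carboxylase, the other route of pyruvate into the cycle, fell by 0.14 ± 0.017 (adjusted p = 1.77e-12). In AKR/J 9 of the 28 rose and 2 fell, beside 22.8% and 14.6% of all genes, and Hk1, a further hexokinase among the 21, fell by 0.30 ± 0.057 (adjusted p = 4.02e-06). Of 19 genes known to be induced by hypoxia that are not enzymes of the pathway, 2 rose and 2 fell at day 2, and 3 rose and 4 fell in AKR/J, shares near those of all genes in both comparisons.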

How the data were processed

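Libraries were made from 200 ng of islet RNA with a TruSeq RNA kit, which keeps no strand. The deposited count table holds raw reads per gene, made by the authors with TopHat 1.3.3, SAMtools 0.1.16 and HTSeq 0.5.3p3 on mm9, per the submitters' processing notes. A second table, normalized by the authors with edgeR, holds log2 values per the file's values, and served only as an alternative. Here counts were fitted with edgeR 4.0.16 (R 4.3.3) by the quasi-likelihood test with TMM scaling, 1 mean per group, a filter on low counts and a prior count of 2, on 17030 genes. A smooth curve of GC content was removed from each library as an offset, and libraries whose slope exceeded 0.5 log2 units per 10 GC points were left out. Of the tested genes 98.7% had a GC value. All 38 members passed the filter. P-values were adjusted by Benjamini-Hochberg over all genes tested. The fits were tested on simulated data.

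Groups came from the labels for strain, diet and time. Alternatives were all libraries with and without the offset, no filter on low counts, DESeq2 1.42.0, limma 3.58.1, other size factors, an acinar covariate, the mouse number as a block, and each mouse of groups of 2 to 5 left out in turn. Leaving out AKR/J was chosen after seeing the data. The members and lists were chosen with earlier results of these data known. Full statistics go to up to 6 members in each direction with the smallest adjusted p of a comparison and to isoform families, and of each other list to up to 4 genes past the threshold. Copies of transcripts were sought with blastn 2.17.0. Among 1069 pairs of mice of a group the lowest chi-square per degree of freedom was 4.37, so no pair agreed within sampling noise. A count of 3 reads corresponds to 0.0591 to 0.315 CPM, the limit that a count of 0 allows, and this covers counting error only. Marker lists covered beta, alpha, delta and PP, acinar, duct, stellate, endothelial, macrophage, lymphocyte, adipocyte and red blood cells. Diet contrasts of single days, of strains and over all mice share mice.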

Additional observations from a re-analysis of the deposited data

Results flagged for a closer look

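The effect of diet differed between strains, by the F test of the interaction with Benjamini-Hochberg adjustment in edgeR, for 25 of 38 members, against 46.8% of all genes. In upper glycolysis the adjusted p was 5.58e-06 for Pfkl, 0.00864 for Pfkm, 0.00968 for Pfkp, 0.0304 for Aldoa and 8.03e-09 for Aldoc. For Pgk1 it was 0.000554 and for Gpd2 0.000592. In the pyruvate dehydrogenase complex and its kinases it was 3.33e-06 for Pdha1, 0.00961 for Pdhb, 0.00118 for Dlat, 0.0024 for Dld, 0.0256 for Pdk1, 2.96e-05 for Pdk2 and 0.0012 for Pdk3. In the TCA cycle it was 0.000212 for Cs, 7.89e-05 for Idh3a, 6.18e-06 for Ogdh, 7.46e-05 for Dlst, 0.0101 for Suclg1, 1.33e-10 for Fh1 and 0.00275 for Mdh2. For the shuttle and glutamate enzymes it was 4.32e-07 for Mdh1, 0.000473 for Got1, 0.0107 for Got2 and 0.000126 for Glud1. The call of Aldoa was lost on leaving out 1 mouse, with an adjusted p up to 0.0799.

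A mouse stood apart from its group, by the gap to its nearest neighbour over the range, in 5 of 26 sets of 1 gene in 1 group. The 26 sets come from 8 groups of 4 to 8 mice and share mice, and 3 of the 5 are 1 mouse. Chance alone marks about 1 in 20 independent sets, which these are not. The same AKR/J mouse on RC at day 90 was highest for Mdh1 (319.27 CPM, the other 7 at 262 to 289 CPM), Suclg1 (89.0059 CPM, the others at 75.4 to 81.5 CPM) and Pgk1 (5.4024 CPM, the others at 3.43 to 4.31 CPM). In BALB/cJ on RC at day 90 1 mouse had Glud1 at 130.945 CPM, against 105.7 to 114.8 CPM in the other 7. In AKR/J on HFHS at day 90 1 mouse had Aldoc at 13.0527 CPM, against 3.02 to 7.05 CPM in the other 7.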

How the results depend on the processing

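Numbers of members past the threshold moved most with the libraries of steep GC dependence, and the cause was not tested. Fits of all libraries also cover other strains and days than the main fit. They add BALB/cJ to diet at day 2, DBA/2J to diet at day 90 and to time, and day 90 to the strain comparisons. The 9 libraries closest to another strain are in them as well. In all libraries without a GC correction they were 1 at day 10, 1 at day 30, 5 at day 90, 7 over all days and strains, 6 for time, 1 for C57Bl/6J and 1 for DBA/2J against the other strains, 2 for 129S2/SvPas against the others, and for diet 0 in C57Bl/6J, 2 in 129S2/SvPas, 9 in A/J and 5 in AKR/J. With the correction in all libraries they were 12 at day 2, 1 at day 10, 2 at day 30, 11 over all, 10 for time, 1 for C57Bl/6J and 2 for 129S2/SvPas against the others, and for diet 0 in C57Bl/6J, 2 in 129S2/SvPas, 3 in A/J and 13 in AKR/J. Within the bound without the correction they were 11 at day 2, 15 at day 30, 1 for DBA/2J, 5 for BALB/cJ and 2 for 129S2/SvPas against the others, and 10 for diet in DBA/2J. With limma voom they were 10 at day 10, 11 at day 30, 2 for A/J against the others, 6 for diet in C57Bl/6J and 9 in A/J. In the authors' normalized table with limma they were 9 at day 2, 0 at day 10, 2 at day 30, 4 at day 90, 6 over all and 6 for time. Without AKR/J they were 6 at day 2, 2 at day 90 and 11 over all.

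Directions turned as follows, and the cause was not tested. In all libraries without a correction day 2 gave Gpi1 -0.097, Pfkm -0.075, Aldoa -0.23, Tpi1 -0.062, Pdk2 -0.14, Idh3g -0.050, Mdh2 -0.033 and Got2 -0.025, day 90 gave Pdha1 -0.0066, DBA/2J gave Dlat -0.0076, Pdk2 0.20 and Idh3a -0.015, and A/J gave Gpi1 -0.081, Pfkl -0.19 and Fh1 0.14. With the correction A/J gave Gpi1 -0.013, Pfkl -0.031 and Fh1 0.063. The authors' table gave at day 2 Gpi1 -0.18, Pfkm -0.17, Aldoa -0.33, Tpi1 -0.16, Pdk2 -0.26, Idh3b -0.081, Idh3g -0.14, Dlst -0.030, Suclg1 -0.0052, Mdh2 -0.12 and Got2 -0.14, and over all Gpi1 -0.0078, Pfkm -0.031, Aldoa -0.052, Tpi1 -0.039 and Got2 -0.019. Of the single calls, none was lost with DESeq2, 7 with voom and 15 with no filter on low counts.

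Leaving out each of 40 mice in turn gave 16 to 20 members at day 2, 4 to 6 at day 10, 7 to 11 at day 90, 17 to 20 over all, 13 to 17 for time and 24 to 26 for the interaction. For diet it gave 0 to 3 in C57Bl/6J, 4 to 7 in DBA/2J, 9 to 11 in BALB/cJ, 4 to 6 in A/J, 25 to 29 in AKR/J and 4 to 5 in 129S2/SvPas. Against the other strains it gave 3 in C57Bl/6J, 1 to 2 in DBA/2J, 3 to 4 in BALB/cJ, 1 to 2 in A/J, 1 in AKR/J and 3 to 5 in 129S2/SvPas.

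Mouse numbers did not pair mice: of 86 pairs with 1 number 34 had a correlation over 0.1 (median 0.052), and 17 correlated best with their own number. With the number as a replicate block the counts were 18 at day 2, 5 at day 10, 6 at day 30, 10 at day 90, 19 over all, 16 for time and 25 for the interaction. The interaction was not run with DESeq2.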
